A study of Mus musculus with 36 samples.

Results

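The genes described here are the subunits, regulators and activators of the proteasome. Their 41 gene symbols name the core, regulatory and activator proteins of the complex, and all 41 matched an Ensembl gene ID among the 51912 IDs that both count tables share. They comprised 7 genes of the α ring (Psma1 to Psma7), 7 of the constitutive β ring (Psmb1 to Psmb7), 3 inducible β subunits (Psmb8 to Psmb10), 6 ATPases of the base (Psmc1 to Psmc6), 3 other base proteins (Psmd1, Psmd2 and Psmd4), 8 lid proteins (Psmd3, Psmd6, Psmd7, Psmd8 and Psmd11 to Psmd14), 3 assembly chaperones (Psmd5, Psmd9 and Psmd10) and 4 activators (Psme1 to Psme4). RNA-seq measured them in whole tibialis anterior (TA), a hindlimb muscle rich in fast fibers, and in whole soleus, which is rich in slow fibers. Each muscle was taken from WT and from ∆Ig3-MuSK mice, which gave 4 groups of 9 libraries and 36 in all, from 3-month-old mice of the C57BL/6 strain. ∆Ig3-MuSK mice are homozygous for a germline CRISPR-Cas9 deletion of the exons that encode the Ig3 domain of MuSK, the BMP-binding part of this muscle receptor, in every cell and not only in myofibers.

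The proteasome is the cell's main machine for degrading proteins tagged with ubiquitin. Its core is a barrel of α rings, which gate entry, and β rings, which hold the protease sites. A regulatory particle caps the barrel, with a base that holds ubiquitin receptors and the ATPases that unfold substrates, and a lid that removes ubiquitin. In skeletal muscle it degrades much of the contractile apparatus during atrophy, and its genes often change together through the transcription factor Nfe2l1 (Nrf1). Interferon-induced β subunits can replace the constitutive catalytic ones, and the activators open the core without the cap.

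The DNA upstream of 4 genes is shown as examples of both directions between muscles, chosen after the values were seen: Psmd8, Psme4 and Psmb3 were lower in soleus in both genotypes, and Psmd10 was higher in ∆Ig3-MuSK soleus than in ∆Ig3-MuSK TA. RefSeq promoter windows of GRCm38.p6, each of 300 bases from 250 before to 50 after a gene's start, were found for 35 of the 41 genes. Psmb1, Psmb2, Psmb7, Psmc3, Psmd3 and Psmd7 had no entry. Each sequence reads 5′ to 3′ on the strand of its gene and stops before the first base annotated as exon. Capitals mark matches, on either strand, to CCAAT, the box bound by NF-Y, or to GAAANNGAA, letters found in interferon response elements.
Psmd8, chr7:29180702-29180923, minus strand: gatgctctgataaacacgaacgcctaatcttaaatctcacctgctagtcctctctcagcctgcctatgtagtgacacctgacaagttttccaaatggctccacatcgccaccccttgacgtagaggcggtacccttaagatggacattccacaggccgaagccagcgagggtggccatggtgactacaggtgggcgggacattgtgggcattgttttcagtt
Psme4, chr11:30771525-30771725, plus strand: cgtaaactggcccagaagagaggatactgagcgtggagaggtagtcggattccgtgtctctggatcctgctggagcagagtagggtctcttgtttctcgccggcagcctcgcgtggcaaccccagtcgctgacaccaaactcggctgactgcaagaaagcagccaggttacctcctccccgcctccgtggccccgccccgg
Psmb3, chr11:97703184-97703398, plus strand: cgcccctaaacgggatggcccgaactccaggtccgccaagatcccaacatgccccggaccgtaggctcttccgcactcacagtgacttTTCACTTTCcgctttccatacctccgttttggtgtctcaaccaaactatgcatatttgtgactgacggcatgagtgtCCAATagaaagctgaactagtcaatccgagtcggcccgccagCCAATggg
Psmd10, chrX:140956729-140956961, minus strand: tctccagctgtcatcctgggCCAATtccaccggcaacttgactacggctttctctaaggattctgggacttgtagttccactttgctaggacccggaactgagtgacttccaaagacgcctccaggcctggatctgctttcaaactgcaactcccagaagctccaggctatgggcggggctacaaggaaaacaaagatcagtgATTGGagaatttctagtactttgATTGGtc
In these stretches Psmb3 held 2 CCAAT boxes and 1 GAAANNGAA, Psmd10 held 3 CCAAT boxes, and Psmd8 and Psme4 held no match to either or to TGANNNNGC, the core letters of the element that Nfe2l1 and Nfe2l2 bind with small Maf proteins. Over the 250 bases before each start, TGANNNNGC was found in 13 of 35 proteasome genes (37.1%) and in 38.7% of 26994 genes. CCAAT was found in 13 (37.1%) and in 37.5%, and GAAANNGAA in 3 (8.57%) and in 8.17%. The letters were thus about as common in the proteasome promoters as in all promoters of this length.

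Total gene counts lay between 43492062 and 78660422 per library, and the 41 genes took between 0.253% and 0.316% of them. The lowest count of any of the 41 genes in a library was 101 and the highest was 18444, so counting error, relative to the value, was largest in the lowest genes, such as Psme2. Values below are CPM, that is, counts divided by library size and TMM factor, with all 36 libraries scaled together. Musk itself, the targeted gene, had 4.25 ± 0.948 CPM in WT TA, 3.09 ± 0.391 in ∆Ig3-MuSK TA, 15.2 ± 1.82 in WT soleus and 11.3 ± 3.29 in ∆Ig3-MuSK soleus (mean ± SD, n = 9). Its log2 difference between genotypes was −0.46 in TA and −0.44 in soleus (edgeR quasi-likelihood test, adjusted p = 0.135 and 0.0978). A count over the whole gene does not check the deletion of a few exons.

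A few TA libraries stood apart in the proteasome genes. WT TA replicate 5 had the highest value of its group in 36 of the 41 genes, with a summed level of 3897 CPM against a group median of 2811. ∆Ig3-MuSK TA replicate 3 was highest in 32 of the 41 genes, with 3210 CPM against 2707. The summed level was also high in WT TA replicate 3, at 3347 CPM. In the soleus the summed levels lay between 2447 and 2728 CPM in WT and between 2440 and 2923 CPM in ∆Ig3-MuSK. The coefficient of variation over 9 libraries, taken as the median over the 41 genes, was 17.3% in WT TA, 9.78% in ∆Ig3-MuSK TA, 4.42% in WT soleus and 7.92% in ∆Ig3-MuSK soleus. For each comparison that involves TA, the number of the 41 genes that passed and their median are therefore also given without these 3 libraries, a choice made after seeing the data. Values of single genes are given with all libraries unless stated otherwise.

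**Figure D1:**
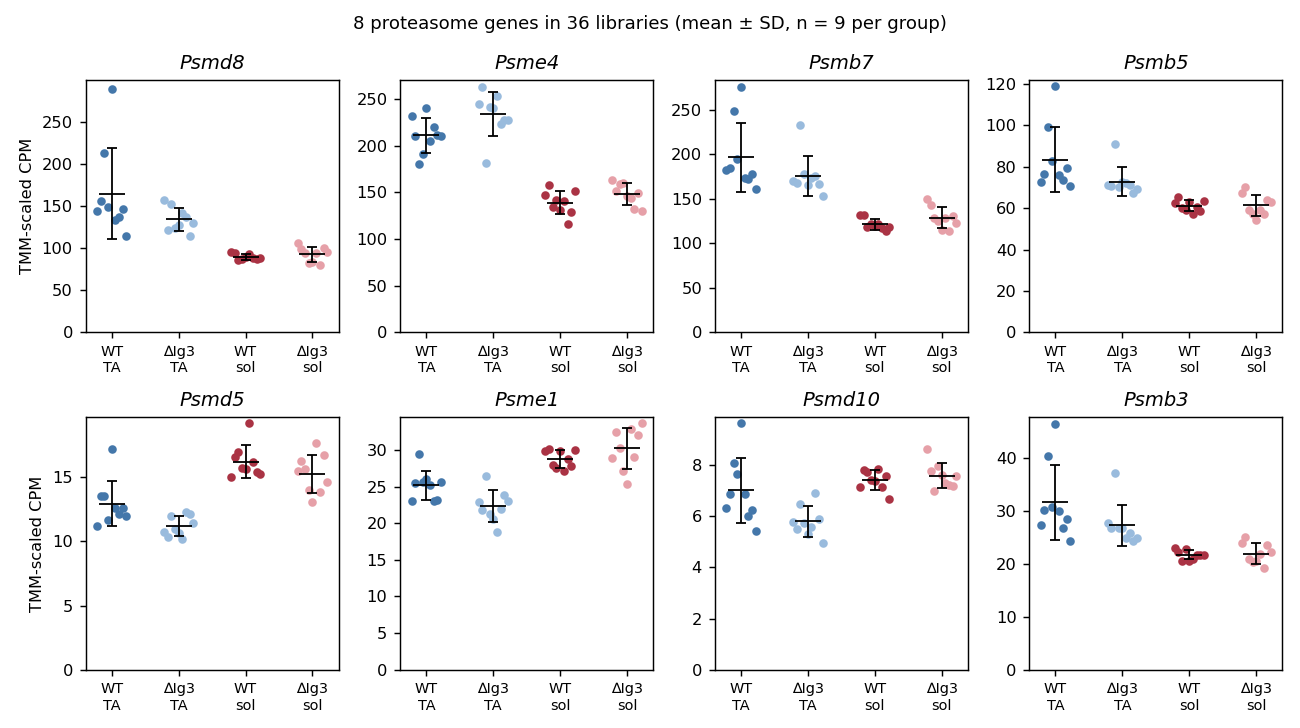
TMM-scaled CPM (y axis, from 0) of 8 proteasome genes in each of the 36 libraries, by group on the x axis, with the mean and SD as bars. WT TA replicate 5 is the topmost WT TA point of Psmd8 at 289 CPM, and the soleus points of Psmd8, Psme4 and Psmb7 lie below all TA points of the same genotype.

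The same TA libraries differed from their groups in the level of short against long transcripts. The median log2 deviation from the group mean of genes whose longest transcript is under 2 kb (7860 genes), minus that of genes over 8 kb (879 genes), was 0.61 in WT TA replicate 5, 0.47 in WT TA replicate 3 and 0.44 in ∆Ig3-MuSK TA replicate 3. In the other 33 libraries it lay between −0.31 and 0.20. The proteasome genes have short transcripts, with a median longest transcript of 1907 bp against 2667 bp for all genes tested, and 39 of the 41 are under 4 kb. Their median deviation in the same 3 libraries was 0.46, 0.24 and 0.27. The genotype difference in TA followed transcript length over all genes, with medians of −0.09 under 2 kb, −0.02 from 2 to 4 kb, 0.08 from 4 to 8 kb and 0.20 over 8 kb, and the part of this in the results below was not tested beyond the values given with the trend removed.

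**Figure D2:**
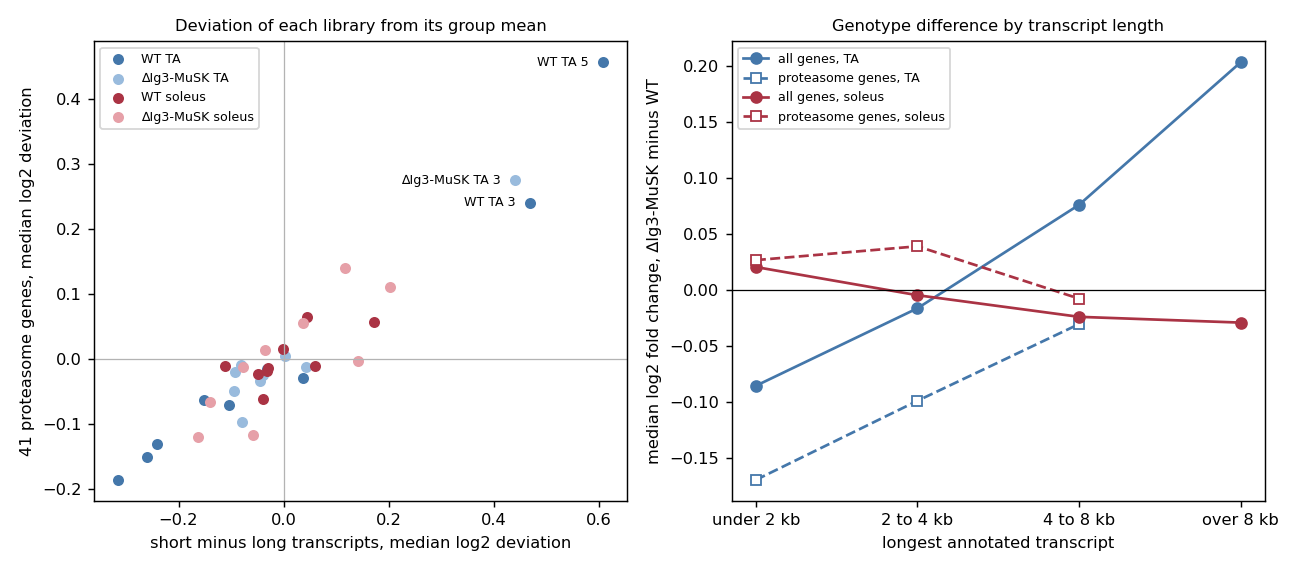
Left, the median log2 deviation of the 41 proteasome genes from their group mean (y axis) against that of short minus long transcripts (x axis), with 1 point per library. Right, the median log2 fold change between genotypes by longest transcript, where the TA line of all genes climbs from −0.09 to 0.20. The TA line of the proteasome genes stands at −0.17 (26 genes under 2 kb), −0.10 (13 genes from 2 to 4 kb) and −0.03. The last point, from 4 to 8 kb, is the median of only 2 genes, and no proteasome gene is longer.

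Between the muscles, the proteasome genes did not move as a block. In WT mice 12 genes were lower in soleus than in TA and 2 were higher, by edgeR's quasi-likelihood test at an adjusted p under 0.05 and at least a 1.2-fold change. Of all 20841 genes tested, 27.3% were lower and 30.2% were higher by the same limits. The median log2 fold change of the 41 genes was −0.12, and that of all genes was 0.02. In ∆Ig3-MuSK mice 5 genes were lower and 8 were higher, where 27.6% of all genes were lower and 28.5% higher, with a median over the 41 genes of 0.05. The muscles came from separate tables, so that muscle and any difference in handling cannot be told apart, and in whole muscle fewer cells of a type and less RNA per cell cannot be told apart either. Without WT TA replicates 3 and 5 and ∆Ig3-MuSK TA replicate 3, the counts were 10 lower and 4 higher in WT (median −0.0047) and 3 lower and 9 higher in ∆Ig3-MuSK (median 0.07). Of all 20948 genes tested in that fit, 5689 were lower and 6073 higher in WT, and 6018 lower and 5875 higher in ∆Ig3-MuSK. In WT, Psma2 (−0.15) and Psmc6 (−0.15) no longer passed, while Psmb4 (0.38) and Psmc1 (0.28) then did. In ∆Ig3-MuSK, Psma7 (−0.26) and Psmb3 (−0.26) no longer passed, while Psmc2 (0.28) then did.

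**Figure D3:**
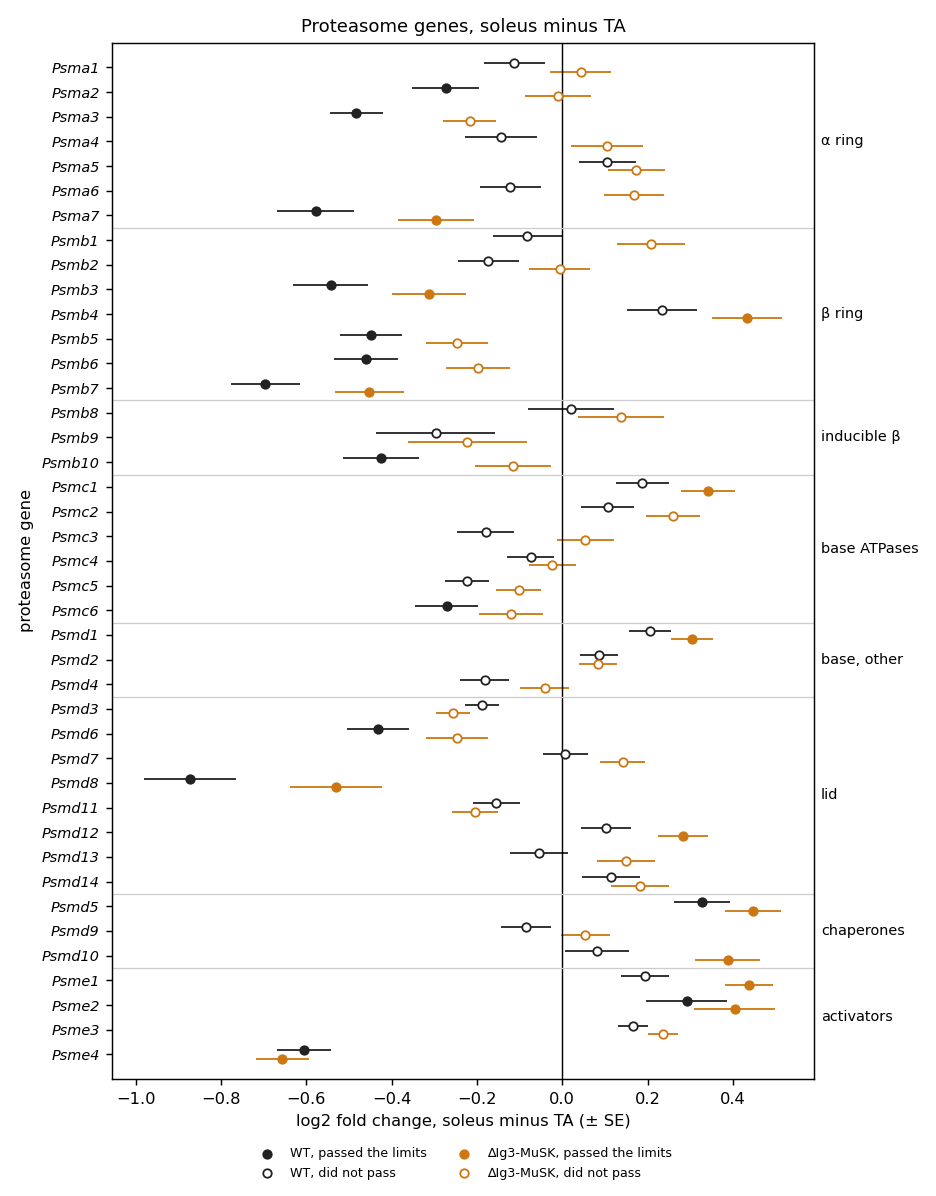
Log2 fold change, soleus minus TA, with its standard error (x axis) for each of the 41 genes (y axis), in WT in black and in ∆Ig3-MuSK in orange. Filled points passed the limits: Psmd8, Psme4, Psmb7, Psmb3 and Psma7 are filled below 0 in both genotypes, and Psmd5 and Psme2 above 0 in both.

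The α ring genes encode the outer rings of the core, whose termini form the gate. Psma7 ranged from 71.2 to 129 CPM in WT TA (median 82.6) and from 55.5 to 64.8 CPM in WT soleus (median 59.7), and the groups did not overlap. Its log2 fold change was −0.58 ± 0.09 (SE) in WT (adjusted p = 5.36e-07) and −0.30 ± 0.09 in ∆Ig3-MuSK (edgeR, adjusted p = 0.00385). Psma3 ranged from 25.5 to 40.1 CPM in WT TA (median 28.2) and from 20.2 to 22.4 in WT soleus (median 21.4), again without overlap, and was lower by a log2 fold change of −0.48 ± 0.06 in WT. In ∆Ig3-MuSK the log2 difference of Psma3 was −0.22, under the 1.2-fold limit. Psma2 was lower in WT (−0.27 ± 0.08), a call that was lost without WT TA replicate 5 (−0.20), without WT TA replicate 3 (−0.25) and without WT soleus replicate 8 (−0.26). The remaining α genes, Psma1, Psma4, Psma5 and Psma6, had log2 differences between −0.14 and 0.17 in both genotypes and did not pass.

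In the β ring, the 3 genes that encode the constitutive protease sites, Psmb5, Psmb6 and Psmb7, were all lower in WT soleus. Psmb7, the trypsin-like site (chr2:38588036-38644087, minus strand), ranged from 161 to 276 CPM in WT TA (median 182), from 154 to 233 in ∆Ig3-MuSK TA (median 170), from 114 to 132 in WT soleus (median 119) and from 114 to 150 in ∆Ig3-MuSK soleus (median 129). The soleus libraries lay below all TA libraries in both genotypes. Its log2 fold change was −0.70 ± 0.08 in WT and −0.45 ± 0.08 in ∆Ig3-MuSK (edgeR, adjusted p = 1.46e-09 and 7.32e-06), and −0.56 and −0.41 without the 3 TA libraries. Exons of Psmb7 overlap those of Nek6 on the other strand, and these libraries do not keep strand.

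Psmb5, the chymotrypsin-like site, ranged from 70.6 to 119 CPM in WT TA (median 76.6) and from 57.1 to 65.5 in WT soleus (median 60.6), with no overlap. Psmb6, the caspase-like site, ranged from 86.5 to 151 CPM in WT TA and from 72.1 to 86.3 in WT soleus, with the highest soleus library just below the lowest TA library. In WT their log2 fold changes were −0.45 ± 0.07 and −0.46 ± 0.08. In ∆Ig3-MuSK the values of −0.25 for Psmb5 and −0.20 for Psmb6 were under the fold limit, and the groups overlapped. Psmb3, a β subunit without a protease site, was lower in both genotypes (−0.54 ± 0.09 and −0.31 ± 0.09), and in ∆Ig3-MuSK this call was lost without ∆Ig3-MuSK TA replicate 3 (−0.25), as was that of Psma7 (−0.24). Psmb4, another non-catalytic subunit, went the other way. It ranged from 74.0 to 111 CPM in ∆Ig3-MuSK TA (median 82.2) and from 104 to 126 in ∆Ig3-MuSK soleus (median 114), a log2 difference of 0.43 ± 0.08 (edgeR, adjusted p = 1.87e-05), and in WT it was 0.23, under the limit. The WT value passed at 0.38 without the 3 TA libraries, at 0.32 without WT TA replicate 5 alone, at 0.27 without WT TA replicate 3 alone, at 0.35 with limma-voom and at 0.29 with the length trend removed. Over the 14 constitutive core genes, 7 were lower and 0 higher in WT soleus, and 3 were lower and 1 higher in ∆Ig3-MuSK soleus.

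Of the inducible β subunits, which replace the 3 protease sites in the immunoproteasome, Psmb10 was lower in WT soleus. It ranged from 9.50 to 15.7 CPM in WT TA (median 10.7) and from 8.00 to 9.80 in WT soleus (median 8.77), so the groups overlapped, with a log2 fold change of −0.43 ± 0.09 (edgeR, adjusted p = 6.64e-05). In ∆Ig3-MuSK it was −0.11. Psmb8 and Psmb9 did not pass in either genotype, and the widest of their log2 differences was −0.30 for Psmb9 in WT (edgeR, adjusted p = 0.0581). Psmb9 overlaps Tap1 on the other strand and Psmb8 overlaps Gm20496.

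The regulatory particle was mixed. Psmd8, a lid subunit also known as Rpn12 (chr7:29174188-29180701, minus strand), gave the lowest fold change of the 41 genes in WT. It ranged from 114 to 289 CPM in WT TA (median 146), with WT TA replicate 5 far above the rest, and from 85.6 to 95.8 in WT soleus (median 88.8). In ∆Ig3-MuSK it ranged from 115 to 157 in TA (median 130) and from 79.9 to 106 in soleus (median 94.4). The muscles did not overlap in either genotype. The log2 fold change was −0.87 ± 0.11 in WT and −0.53 ± 0.11 in ∆Ig3-MuSK (edgeR, adjusted p = 4.89e-09 and 4.42e-05), and −0.65 and −0.52 without the 3 TA libraries.

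The other lid gene that passed in WT was Psmd6, at −0.43 ± 0.07, and Psmd12 passed in ∆Ig3-MuSK, at 0.28 ± 0.06, a call lost without ∆Ig3-MuSK TA replicate 8 (0.25). Psmd3, a lid protein, did not overlap between the muscles in either genotype, with 97.8 to 109 CPM in WT TA against 89.3 to 97.7 in WT soleus, but its log2 differences of −0.19 and −0.26 were under the fold limit. In the base, the ATPase gene Psmc6 was lower in WT (−0.27 ± 0.07), a call lost without WT TA replicate 5 (−0.21) or without WT TA replicate 3 (−0.23). The ATPase gene Psmc1 and Psmd1, a scaffold of the base, were higher in ∆Ig3-MuSK soleus, by 0.34 ± 0.06 and 0.30 ± 0.05 on the log2 scale. Psmd1 ranged from 83.8 to 104 CPM in ∆Ig3-MuSK TA and from 108 to 127 in ∆Ig3-MuSK soleus, with no overlap. In all, 11 base and lid genes, Psmd3 among them, did not pass in either genotype. They include Psmd14, the lid enzyme that removes ubiquitin chains (29.2 ± 4.22 CPM in WT TA and 31.6 ± 1.06 in WT soleus), and the ubiquitin receptor Psmd4, at 107 ± 9.61 and 94.2 ± 6.97 CPM.

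Psmd5 and Psmd10, of the assembly chaperones, were higher in ∆Ig3-MuSK soleus. Psmd5 ranged from 11.2 to 17.2 CPM in WT TA (median 12.6), from 10.2 to 12.3 in ∆Ig3-MuSK TA (median 10.96), from 15.02 to 19.2 in WT soleus (median 15.7) and from 13.1 to 17.7 in ∆Ig3-MuSK soleus (median 15.5). All ∆Ig3-MuSK soleus libraries lay above all ∆Ig3-MuSK TA libraries, while in WT the groups overlapped. The log2 fold change of Psmd5 was 0.33 ± 0.07 in WT and 0.45 ± 0.07 in ∆Ig3-MuSK (edgeR, adjusted p = 3.83e-05 and 2.04e-07), and the WT value was 0.26, under the fold limit, with the trend over transcript length removed. Psmd10, also known as gankyrin, ranged from 4.94 to 6.91 CPM in ∆Ig3-MuSK TA (median 5.75) and from 7.01 to 8.62 in ∆Ig3-MuSK soleus (median 7.58), with no overlap and a log2 fold change of 0.39 ± 0.08. In WT it was 0.08. Psmd9 did not pass.

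The activators parted. Psme4, which encodes PA200, a nuclear activator linked to the degradation of acetylated histones (chr11:30771726-30880361, plus strand), was the only one of the 4 that was lower in soleus. It ranged from 180 to 240 CPM in WT TA (median 210), from 181 to 263 in ∆Ig3-MuSK TA (median 240), from 117 to 157 in WT soleus (median 140) and from 130 to 163 in ∆Ig3-MuSK soleus (median 150). No soleus library reached a TA library of its genotype. The log2 fold change was −0.60 ± 0.06 in WT and −0.66 ± 0.06 in ∆Ig3-MuSK (edgeR, adjusted p = 9.48e-11 and 1.38e-11), and −0.62 and −0.71 without the 3 TA libraries. Psme4 has the longest transcript of the 41 genes, at 6491 bp. In Psme4, WT TA replicate 3 and ∆Ig3-MuSK TA replicate 3 were the lowest libraries of their groups, while WT TA replicate 5 was the highest of its group.

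Psme1 and Psme2 encode the subunits of PA28αβ, the interferon-inducible activator. Psme1 ranged from 18.8 to 26.5 CPM in ∆Ig3-MuSK TA (median 21.9) and from 25.3 to 33.7 in ∆Ig3-MuSK soleus (median 30.3), with a log2 fold change of 0.44 ± 0.06 (edgeR, adjusted p = 1.3e-08). In WT it was 0.19, under the fold limit. Psme2 was higher in soleus in both genotypes, by 0.29 ± 0.09 and 0.40 ± 0.09 on the log2 scale, at 3.22 ± 0.651 CPM in WT TA and 3.93 ± 0.365 in WT soleus, and the WT call was lost without WT TA replicate 9 (0.24). Its values are uncertain, because Psme2b, a gene of near-identical sequence, took a median of 814 counts per WT TA library against 201 for Psme2, and the handling of reads that match both is not given in the sources used here. The sum of both genes was 15.9 ± 2.68 CPM in WT TA, 14.2 ± 1.60 in ∆Ig3-MuSK TA, 19.1 ± 1.504 in WT soleus and 19.6 ± 1.55 in ∆Ig3-MuSK soleus. Psme3, which encodes the nuclear activator PA28γ, ranged from 39.0 to 43.6 CPM in ∆Ig3-MuSK TA and from 45.6 to 51.7 in ∆Ig3-MuSK soleus without overlap, but its log2 difference of 0.24 was under the fold limit.

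Counting genes whose 9 soleus and 9 TA libraries did not overlap, 9 of the 41 lay lower in WT soleus and 0 higher, where 13.7% of all genes tested lay lower and 14.6% higher. In ∆Ig3-MuSK 4 lay lower and 4 higher, where 14.6% of all genes lay lower and 14.8% higher. The 4 lower genes were Psmb7, Psmd3, Psmd8 and Psme4, and the 4 higher were Psmd1, Psmd5, Psmd10 and Psme3. Fiber type markers differed between the muscles. The 8 genes of the slow fiber list summed to 517.1 to 883 CPM in WT TA and 26504 to 35321 in WT soleus. That list includes Myh2, the myosin of type IIa fibers, so its sum is not one of slow fibers alone. The 8 fast fiber genes summed to 72381 to 89251 CPM in WT TA and 18982 to 41739 in WT soleus. The 5 heat shock genes of the handling list summed to 66.7 to 89.5 CPM in WT TA and 142 to 233 in WT soleus. Of 11 immediate-early genes, 10 were higher and 1 lower in WT soleus, and 8 and 1 in ∆Ig3-MuSK soleus. All 4 adipocyte genes tested were higher in soleus, with a median log2 fold change of 1.61 in WT and 2.40 in ∆Ig3-MuSK. Of 7 endothelial genes 5 were higher and 1 lower in WT and 3 and 1 in ∆Ig3-MuSK, of 8 fibroblast and tendon genes 5 and 1, and 3 and 1, and of 4 satellite cell genes 3 and 4 were higher. Of 4 erythrocyte genes, 2 were higher in WT soleus and all 4 in ∆Ig3-MuSK soleus, and of 7 Schwann cell and neuronal genes 0 were higher and 3 lower in WT, and 1 and 1 in ∆Ig3-MuSK. The sums of the 14 leukocyte genes overlapped between the muscles, at 126 to 266 CPM in WT TA and 107 to 375 in WT soleus, and 1 was higher and 2 lower in WT and 0 and 5 in ∆Ig3-MuSK. The part of these markers in the proteasome values was not tested.

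The question of the study was whether loss of the MuSK Ig3 domain changes muscle. In TA, 0 of the 41 genes passed the limits between genotypes, where 3 of 20075 genes passed (0.0149%) in edgeR's test. DESeq2 and limma-voom also passed 0 of the 41. At an unadjusted p under 0.05, 10 of the 41 genes were lower and 1 higher, against 12.0% and 12.2% of all genes. The log2 fold change was below 0 in 37 of the 41 genes, with a median of −0.15 against −0.003 for all genes. The 14 constitutive core genes lay between −0.24 and −0.10. These 41 genes share libraries and transcript length, so they are not 41 separate observations. With the trend over transcript length removed, a choice made after seeing the data, the median was −0.10 and 34 genes were below 0. Without the 3 TA libraries it was −0.055 with 34 genes below 0. At an unadjusted p under 0.05, 13 genes were then lower and 1 higher, with 0 passing and a smallest adjusted p of 0.0759 (edgeR). Without WT TA replicate 5 and ∆Ig3-MuSK TA replicate 3 only, 15 were lower and 1 higher, with 0 passing (smallest adjusted p = 0.0772, edgeR). The share of all genes at this limit is not given for these fits, so their counts cannot be set against it.

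The genes with the smallest adjusted p in TA were Psmd5, Psmd10 and Psme1 (0.156, 0.159 and 0.161, edgeR). Psmd10 ranged from 5.43 to 9.64 CPM in WT TA (median 6.87) and from 4.94 to 6.91 in ∆Ig3-MuSK TA (median 5.75), with a log2 difference of −0.27 ± 0.09. The ranges overlapped, while all 9 ∆Ig3-MuSK libraries lay below the WT mean and 1 lay above the WT median. Psmd5 gave −0.21 ± 0.07 and Psme1 −0.17 ± 0.06. The lowest values were those of Psmd8 and Psmb10, at −0.30 ± 0.13 and −0.30 ± 0.11. For Psmd8 the value without the 3 TA libraries was −0.09. Psme4 gave the highest value, 0.15 ± 0.07 (adjusted p = 0.195), and it was 0.18 without the 3 libraries. In a single edgeR fit over the 36 libraries Psmd10 and Psmb10 passed in TA (adjusted p = 0.0404 and 0.0467). Leukocyte markers lay below 0 in all 14 genes in this comparison, with 0 passing, and summed to 126 to 266 CPM in WT TA and 116 to 192 in ∆Ig3-MuSK TA. All 5 heat shock genes also lay below 0, as did 9 of 11 immediate-early and 6 of 8 fibroblast and tendon genes, with 0 passing. Above 0 lay 7 of the 8 genes of the slow fiber list and 5 of 7 endothelial genes, again with 0 passing. The part of these lists in the proteasome values was not tested in TA.

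**Figure D4:**
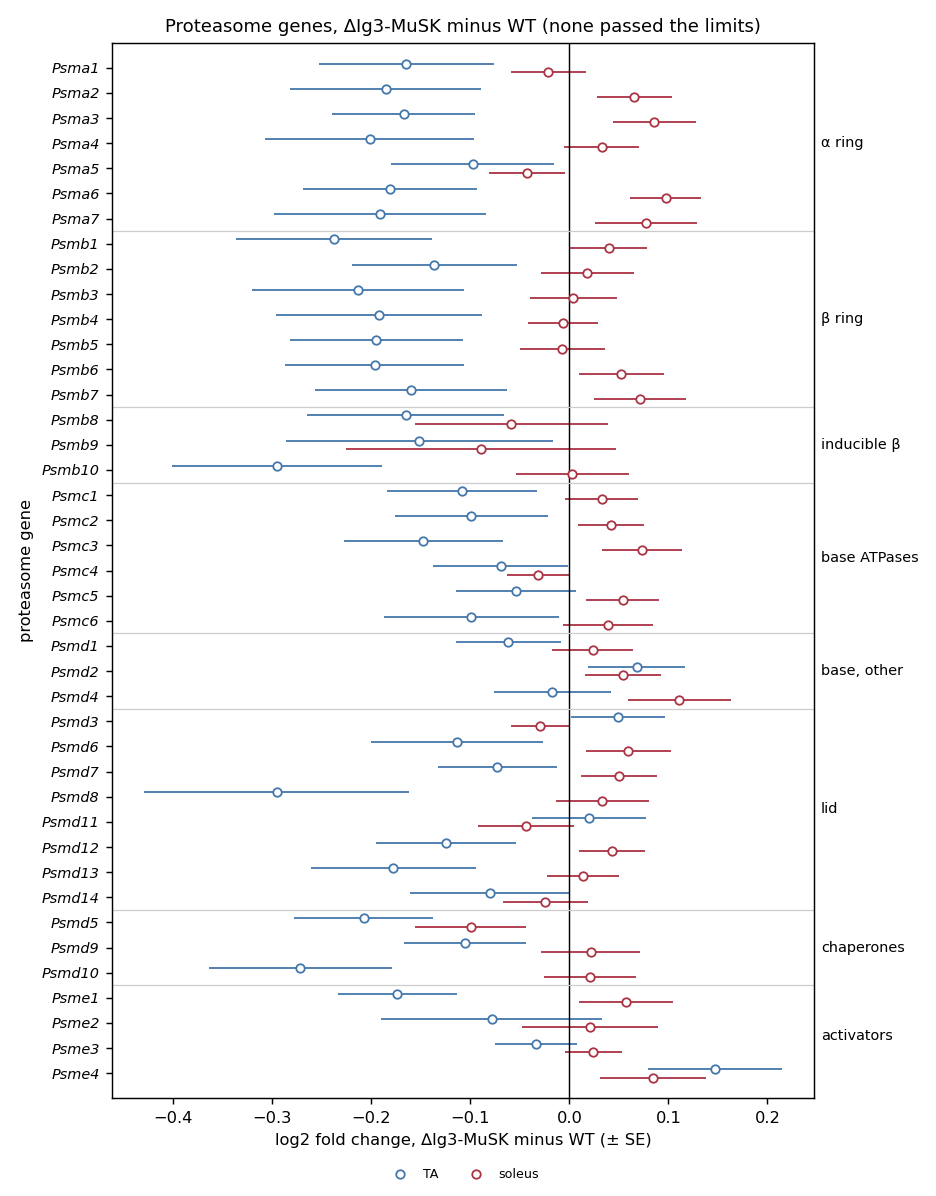
Log2 fold change, ∆Ig3-MuSK minus WT, with its standard error (x axis) for each of the 41 genes (y axis), in TA and in soleus. None passed the limits, the TA values lie below 0 in 37 genes, and the soleus values lie between −0.10 and 0.11.

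In soleus, 0 of the 41 genes passed between genotypes, where 185 of 19439 genes passed (0.952%) in edgeR's test, and 0 passed with DESeq2 or limma-voom. At an unadjusted p under 0.05, 2 genes were higher and 0 lower, against 8.48% and 10.1% of all genes. The log2 fold changes lay between −0.10 and 0.11, with a median of 0.03, and 30 genes were above 0. The smallest adjusted p was that of Psma6, an α ring gene, which ranged from 62.3 to 70.8 CPM in WT (median 68.1) and from 65.8 to 80.8 in ∆Ig3-MuSK (median 71.4). The groups overlapped, and its log2 difference was 0.10 ± 0.04 (edgeR, adjusted p = 0.149). Psmd4 gave 0.11 ± 0.05 and Psma3 0.09 ± 0.04 (adjusted p = 0.254 and 0.28). Leukocyte markers summed to 107 to 375 CPM in WT soleus and 42.4 to 197 in ∆Ig3-MuSK soleus, fibroblast and tendon markers to 707 to 1882 and 344 to 1066, and fast fiber markers to 18982 to 41739 and 27280 to 38941. No gene of these 3 lists passed, but 12 of 13 leukocyte genes tested and all 8 fibroblast and tendon genes lay below 0. All 8 fast fiber genes lay above 0. The 5 heat shock genes all lay below 0, with Hspa1b passing, and summed to 142 to 233 CPM in WT soleus and 122 to 183 in ∆Ig3-MuSK soleus. All 11 immediate-early genes lay below 0, with Egr3 passing, and all 7 Schwann cell and neuronal genes above 0, with Syt1 passing. The part of these lists in the proteasome values was not tested.

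The difference between the genotype effects of the muscles was tested as an interaction over the 36 libraries. None of the 41 genes passed an adjusted p of 0.05, and 0 of 20841 genes did (0%) in edgeR's test, with a smallest adjusted p of 0.0652. At an unadjusted p under 0.05, 15 of the 41 genes were above 0 and 0 below, against 13.7% and 11.2% of all genes. The log2 value was above 0 in 37 genes and in all 14 constitutive core genes, with a median of 0.16 over the 41 genes. The smallest adjusted p were those of Psme1 (0.24 ± 0.08, 0.103), Psma3 (0.27 ± 0.09, 0.104) and, at 0.106, Psma6 (0.29 ± 0.10) and Psmd10 (0.30 ± 0.11), all from edgeR. These 4 genes passed with DESeq2, and Psme1 and Psma6 with limma-voom and quality weights. Both tests also passed many other genes in the interaction (counted in a later section), so these calls are not particular to the 41 genes. By transcript length, the median of all genes was 0.11 under 2 kb and −0.24 over 8 kb, and that of the proteasome genes was 0.20 under 2 kb and 0.14 from 2 to 4 kb. With the length trend removed the median of the 41 genes was 0.13, with 39 above 0 and 0 passing. Without the 3 TA libraries it was 0.092, with 35 above 0 and 0 passing. At an unadjusted p under 0.05, 14 genes were then above 0 and 0 below (smallest adjusted p = 0.0788, edgeR). Without WT TA replicate 5 and ∆Ig3-MuSK TA replicate 3 only, 21 were above 0 and 0 below, with 0 passing (smallest adjusted p = 0.0555, edgeR). For these fits the share of all genes at this limit is not given, so a rise particular to the 41 genes cannot be read from their counts.

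Levels of different genes were compared per kb of exon. Psmb5 was the highest in all 4 groups, at 92.7 ± 17.5 CPM per kb in WT TA, 80.9 ± 7.70 in ∆Ig3-MuSK TA, 67.9 ± 3.00 in WT soleus and 68.1 ± 5.81 in ∆Ig3-MuSK soleus. In WT TA it was followed by the ATPase gene Psmc5 (61.8 ± 5.07) and by Psma6 (58.8 ± 10.7), which do not differ beyond their spread. In WT soleus Psmb4 (58.3 ± 1.68) and Psma6 (54.0 ± 2.54) followed. Psmb9 was the lowest in all 4 groups, between 0.763 ± 0.196 and 0.990 ± 0.244 CPM per kb, and Psmb8 was next, between 1.38 ± 0.183 and 1.56 ± 0.165. In WT TA the third lowest was Psmd5, at 1.79 ± 0.245, close to Psme2 at 1.82 ± 0.369. Subunits that enter the complex in equal numbers differed widely: the α ring genes spanned 7.68-fold in WT TA and 9.87-fold in WT soleus, and the β ring genes 6.75-fold and 7.204-fold. Exon length summed over all transcripts overstates the length of genes with many isoforms, and with the longest transcript as the length Psmb5 ranked 2 in WT TA, after Psmb6, and 4 in WT soleus, where Psmb4 ranked 1. In WT TA Psmc5 then ranked 10 and Psma6 ranked 6. The α ring genes then lay between 10.3 (Psma5) and 69.6 (Psma6) CPM per kb in WT TA, and the β ring genes between 20.9 (Psmb3) and 110 (Psmb6). The order and the spans thus depend on the length used.

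The inducible β genes were far below their constitutive counterparts, per kb and in each library. The ratio of Psmb8 to Psmb5 was 0.0168 ± 0.0023 in WT TA, 0.0171 ± 0.0028 in ∆Ig3-MuSK TA, 0.0230 ± 0.0018 in WT soleus and 0.0223 ± 0.0043 in ∆Ig3-MuSK soleus. The ratio of Psmb9 to Psmb6 was 0.0174, 0.0180, 0.0195 and 0.0178 in the same order, and that of Psmb10 to Psmb7 was 0.120, 0.110, 0.145 and 0.139. Each denominator gene was itself lower in WT soleus, so a ratio shows only that the 2 genes did not change equally. Psme4 per kb was 2.23 ± 0.317 times Psme1 in WT TA, 2.80 ± 0.493 times in ∆Ig3-MuSK TA, 1.27 ± 0.104 times in WT soleus and 1.31 ± 0.186 times in ∆Ig3-MuSK soleus.

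Genes that work with the proteasome were counted by lists, with all libraries. Over all genes tested, 27.3% were lower and 30.2% higher in WT soleus and 27.6% and 28.5% in ∆Ig3-MuSK soleus, and the shares of several lists lay near these. Of 12 other proteasome proteins, 4 were lower and 0 higher in WT soleus, and 3 were lower and 2 higher in ∆Ig3-MuSK soleus. Adrm1, a ubiquitin receptor of the base, was lower in soleus, at −0.41 in WT and −0.44 in ∆Ig3-MuSK on the log2 scale, and so was Ecpas, which binds the complex, at −0.33 and −0.32. Pomp, the chaperone that builds the core, was higher in ∆Ig3-MuSK soleus by 0.36. Of 11 regulators of proteasome genes, 4 were higher and 3 lower in WT, and 4 and 4 in ∆Ig3-MuSK. Nfe2l1, which drives proteasome gene transcription, had 620 CPM in WT TA and 1029 in WT soleus, a log2 difference of 0.73 ± 0.05, and of 0.70 ± 0.05 in ∆Ig3-MuSK. Ddi2, the protease that activates its product, was lower, at −0.70 and −0.93.

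In the ubiquitin pathway, 2 of 6 ubiquitin and E1 genes were higher and 2 lower in WT soleus, and 2 and 0 in ∆Ig3-MuSK soleus, with Uba1, the main E1, at 0.57 ± 0.05 in WT. Of 27 E2 genes, 11 were lower and 2 higher in WT and 6 were lower and 3 higher in ∆Ig3-MuSK, with Ube2d1 at −1.40 and −1.17 and Ube2g2 at 0.97 and 1.017. Of 20 ubiquitin ligases studied in muscle, 7 were lower and 4 higher in WT and 8 and 2 in ∆Ig3-MuSK: Trim63 (MuRF1) was lower at −0.50 and −0.48 and Fbxo30 was higher at 0.85 and 0.62. Of 10 shuttle and unfoldase genes, 1 was higher and 1 lower in WT and 0 and 1 in ∆Ig3-MuSK, with Ufd1 lower in both. Of 17 interferon and antigen presentation genes, 5 were higher and 3 lower in WT and 6 and 3 in ∆Ig3-MuSK. In none of these 7 lists did a gene pass between genotypes in either muscle or in the interaction by edgeR's test.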

How the data were processed

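Total RNA of whole TA and soleus was made into non-stranded libraries. Per the labels and the study's methods, the authors trimmed reads with Trimmomatic, aligned them with GSNAP to GRCm38 (mm10) and counted reads per Ensembl gene with HTSeq. The versions, the annotation release and the handling of multi-mapped reads are not given in the sources used here. The deposited tables hold whole-number counts without normalization, 1 table per muscle, with 0 columns of other samples. Groups came from the titles, and nothing but the study's legend, which gives a muscle per animal, says that libraries are separate animals.

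The 41 genes, the related lists and the tests were chosen with earlier results of these data known. Of the 51912 gene IDs, 51633 had a symbol and 51719 an exon length in the GENCODE annotation of GRCm38. Genotypes were compared within each muscle, and the muscles and the interaction in a single fit over 36 libraries, with glmQLFit and glmQLFTest of edgeR 4.0.16 (R 4.3.3) on all genes kept by filterByExpr (minimum count 10, minimum total count 15), with TMM factors and Benjamini-Hochberg adjustment over all genes tested. All 41 genes passed the filter in each comparison. Calls needed an adjusted p under 0.05 and a 1.2-fold change, except in the interaction, which had no fold minimum. The paper used DESeq2 in iDEP. Levels per length are CPM divided by the summed exon length, and ratios were formed per library. The trend over transcript length was fitted with a lowess curve (span 0.5) in each library.

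All 41 genes were accounted for. Values were given for genes called, for the 3 with the smallest adjusted p in each comparison, for the 10 widest differences between muscles, for the catalytic and inducible β subunits, the activators and the 3 highest and 3 lowest per length. Of related lists, called genes with the smallest adjusted p or the widest fold changes were named, and Pomp and Trim63 were picked with their values in view. Other settings tried were DESeq2 1.42.0, limma-voom with quality weights (limma 3.58.1), RLE and upper-quartile factors, no filter, no fold minimum, other sets of libraries in the fit, replicate blocks, and each library left out. Leaving out 2 or 3 TA libraries and removing the length trend were added after the data were seen. On simulated counts with 200 genes changed 1.3-fold, the test recovered 53% in TA (19884 genes), 70.5% in soleus (19304 genes) and 31% in the interaction (20561 genes). Changed 2-fold, it recovered 99%, 99% and 97% (19897, 19317 and 20572 genes). The simulated counts were drawn separately for each gene and library and held no shift by transcript length, so these shares need not hold for the real libraries.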

Additional observations from a re-analysis of the deposited data

Results flagged for a closer look

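In 34 of the 164 groups of 9 values (41 genes in 4 groups), the highest or the lowest library lay farther from the others than Dixon's test allows at its 95% level, which chance alone does in about 1 group of 20. Of these, 25 came from ∆Ig3-MuSK TA replicate 3, the library that was high in short transcripts.

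∆Ig3-MuSK TA replicate 3 was the high library in 13 core genes, with CPM of Psma1 (66.3), Psma2 (68.5), Psma4 (73.5), Psma5 (14.9), Psma6 (80.6), Psma7 (102), Psmb1 (88.7), Psmb2 (47.0), Psmb3 (37.2), Psmb4 (111), Psmb5 (90.7), Psmb6 (115) and Psmb7 (233). It was also the high library in 11 genes of the regulatory particle, with CPM of Psmc1 (99.1), Psmc2 (82.6), Psmc3 (157), Psmc4 (63.7), Psmc5 (102), Psmc6 (73.3), Psmd4 (124), Psmd6 (99.7), Psmd7 (117), Psmd13 (67.8) and Psmd14 (36.1). It was the low library in Psme4 (181), whose transcript is the longest of the 41 genes. WT TA replicate 5 stood above its group in Psmc2 (102), Psmc4 (72.9), Psmd1 (119), Psmd12 (101) and Psmd5 (17.2), and WT TA replicate 3 in Psme1 (29.4). In WT soleus, replicate 2 stood above its group in Psmc1 (104) and Psmd1 (131), and replicate 6 in Psmd5 (19.2). Whether transcript length accounts for these values was not tested.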

How the results depend on the processing

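No log2 fold change of the 41 genes that passed the limits changed sign under any alternative run. Calls between muscles that were lost fell under the 1.2-fold limit, with adjusted p still under 0.05 (edgeR or limma).

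Of the counts and medians over the 41 genes, these moved. A single fit over 36 libraries called 2 genes lower in TA between genotypes (Psmb10 and Psmd10). Limma-voom with quality weights gave a median of −0.026 for WT soleus minus TA, and 2 genes in the interaction, where DESeq2 gave 4. Without the fold minimum, 7 genes were higher and 18 lower in WT soleus, and 15 were higher and 11 lower in ∆Ig3-MuSK soleus. The counts of all genes without the fold minimum are not given here. At an unadjusted p under 0.05 (edgeR), 7 of the 41 genes were higher and 19 lower in WT, against 7492 and 7017 of all 20841 genes. In ∆Ig3-MuSK 16 were higher and 11 lower, against 7247 and 7096 of all genes. Without WT TA replicate 5 and ∆Ig3-MuSK TA replicate 3, 3 genes were lower in ∆Ig3-MuSK soleus, against 5981 of all 20849 genes tested. Without WT TA replicate 3 as well, 3 of the 41 genes were again lower there, and the genotype median in TA was −0.055. In WT soleus 4 genes were then higher with a median of −0.0047. With the longest transcript as length, the median level was 32.5 CPM per kb in WT TA, 33.7 in ∆Ig3-MuSK TA, 32.0 in WT soleus and 31.6 in ∆Ig3-MuSK soleus, against 20.2, 17.99, 17.6 and 17.9. Without division by length and in the same order of groups, the ratio of Psmb8 to Psmb5 was 0.0632, 0.0645, 0.0865 and 0.0839, that of Psmb9 to Psmb6 was 0.0339, 0.0352, 0.0380 and 0.0348, and that of Psmb10 to Psmb7 was 0.0598, 0.0546, 0.0723 and 0.0690.

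Leaving out each library in turn, 0 genes passed between genotypes in either muscle, with medians of −0.17 to −0.08 in TA (−0.08 without WT TA replicate 5) and 0.01 to 0.05 in soleus. In the interaction 0 to 3 genes were higher (3 without WT TA replicate 9: Psma3, Psma6 and Psmd10; 2 without ∆Ig3-MuSK TA replicate 3: Psma6 and Psme1), 0 lower, with medians of 0.10 to 0.20. For WT soleus minus TA, 1 to 3 were higher (1 without WT TA replicate 9), 10 to 13 lower, with medians of −0.15 to −0.07. For ∆Ig3-MuSK, 7 to 9 were higher and 3 to 8 lower (3 without ∆Ig3-MuSK TA replicate 3, 8 without ∆Ig3-MuSK TA replicate 8 or WT TA replicate 5), with medians of 0.03 to 0.08.

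Same-numbered titles gave correlations of deviations from −0.13 to 0.39 in TA and −0.28 to 0.31 in soleus, and 1 of 9 libraries correlated best with its own number in each. Numbers shared by TA and soleus labels gave 0.03 to 0.12 in WT (2 of 8 best) and 0.03 to 0.28 in ∆Ig3-MuSK (5 of 8 best). Whether a shared number marks muscles of the same animal is not given. The main fits treated all 36 libraries as separate, and the block by label number allowed for such pairs. With a replicate block by title, 0 genes passed between genotypes in either muscle and 0 in the interaction; Psma2 and Psmc6 were lost and Psmb9 gained (−0.28) in WT soleus, and Psmc2 gained (0.26) in ∆Ig3-MuSK soleus. The block by label number also lost Psma2 and Psmc6.

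Counts over all genes depended on the test. Between genotypes in TA, 3 genes were higher and 0 lower in the edgeR fit, 169 and 68 with DESeq2, 120 and 30 with limma-voom, 6 and 1 with upper-quartile factors, 8 and 2 without the filter, 485 and 207 in the single fit, 0 and 0 with the block, 7 and 1 without the length trend, and 16 and 3 or 22 and 3 without 2 or 3 TA libraries. In soleus they were 71 and 114, 165 and 324 with DESeq2, 263 and 390 with limma-voom, 119 and 193 in the single fit, and 256 lower with the block. In the interaction they were 0 and 0, 776 and 323 of 10171 genes with DESeq2, and 716 and 636 of 20841 with limma-voom. They were 5 and 4 with the block by label number, 1 and 0 without the length trend, and 845 and 605 without WT TA replicate 9. The cause was not tested.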

Other observations

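Tissue-restricted relatives of the proteasome genes were near or at 0 counts. Psma8, the α subunit of the testis, had 0 to 5 counts per library over the 36 libraries, and Psmb11, the β subunit of the thymus, had 0 to 2. Both were looked up after the values of the 41 genes were seen.

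Copies of the core genes took few counts beside their parent genes, at a median of 19 counts in WT TA for Psmb5-ps against 5119 for Psmb5, 16 for Psmb6-ps2 against 6421 for Psmb6, and 12 for Psmb7-ps2 against 11422 for Psmb7. Psme2b, by contrast, took a median of 814 counts in WT TA, 699 in ∆Ig3-MuSK TA, 745 in WT soleus and 792 in ∆Ig3-MuSK soleus, each above Psme2 at 201, 195, 193 and 213. Psme2b was higher in ∆Ig3-MuSK soleus than in ∆Ig3-MuSK TA by 0.48 on the log2 scale (edgeR, adjusted p = 7.3e-07).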
